A study of Mus musculus with 2 samples.

Results

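The cytosolic ribosomal protein genes were examined in Colon26 tumours, as the genes whose current symbol begins with Rpl or Rps followed by a digit or p, apart from the S6 kinases. Of 13506 named genes with a value on both arrays, 58 met this rule: 36 of the large subunit, 21 of the small subunit, and Rps19bp1, which is named for a protein that binds Rps19 and is not itself a ribosomal protein. Colon26 is a mouse colon carcinoma line, and its cells were injected beneath the rectal mucosa of Balb/c mice. On each of 2 two-colour arrays, RNA of a primary tumour was labelled with Cy5 and RNA of a liver metastasis with Cy3, and the tumours of the 2 arrays were grown and collected independently. The carcinoma line, the host strain, the site of injection, the RNA amplification and the dye orientation were common to both arrays, and no dye-swapped array was used here. The design compares primary growth with hepatic spread of the same carcinoma.

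Values are log ratios of the 2 channels, taken as log2. Which channel was the numerator is not given in the sources used here, so values are reported as lying on the positive or the negative side, and neither side is assigned to the primary tumour or the metastasis. A natural log was not excluded, in which case every fold would be larger. Because the dyes ran the same way each time, an effect of dye and an effect of tissue cannot be told apart. Whole tumours were measured, so fewer cells of a type and less RNA per cell cannot be told apart either.

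Ribosomal proteins and ribosomal RNA are joined into a small subunit, which holds the mRNA and reads its codons, and a large subunit, which forms the peptide bonds and passes the new chain out through an exit tunnel. The proteins are needed in near equal amounts, and their genes are among the most strongly transcribed of growing cells. In mammals their mRNAs start with a cytosine followed by a run of pyrimidines, the 5′ terminal oligopyrimidine (TOP) tract, through which mTOR signalling and the RNA-binding protein Larp1 control their translation together. Some ribosomal proteins act outside the ribosome: Rpl5 and Rpl11, for example, bind Mdm2, the ubiquitin ligase of p53.

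The start-site sequences of some members are shown because such a tract is known for these genes. RefSeq start-site windows of GRCm38.p6, from 250 bases before to 50 after an annotated start, were matched by symbol for 46 of the 58 genes. Each line gives 30 bases around the longest run of C and T letters found between 25 bases before and 50 after the start, with that run in capitals. The run of Rpl41 reaches the end of its window and may be longer. The first 5 genes lay on the negative side of the ratio on both arrays and the last 2 on the positive side.
Rpl41 (chr10:128549119-128549148, minus strand): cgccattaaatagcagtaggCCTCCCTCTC
Rps10 (chr17:27635226-27635255, minus strand): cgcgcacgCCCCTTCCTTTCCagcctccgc
Rpl26 (chr11:68901579-68901608, plus strand): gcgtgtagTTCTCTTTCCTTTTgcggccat
Rps3 (chr7:99483673-99483702, minus strand): gcggcgtcattgCTCCCgccctatatacct
Rps7 (chr12:28635910-28635939, minus strand): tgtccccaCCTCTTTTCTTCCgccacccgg
Rpl37 (chr15:5116632-5116661, plus strand): gcgggggtgCTTTCTCTTCCggtctctttg
Rpl28 (chr7:4792953-4792982, plus strand): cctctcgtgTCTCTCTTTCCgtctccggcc

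Runs were read on the strand that has the sequence of the mRNA. A run of at least 8 C or T letters was present for 38 of the 46 matched ribosomal protein genes (82.6%). The share was 30.4% of all 27025 genes in the promoter table and 29.9% of the tested genes in it. The runs of Rpl26 and Rps7 were 14 and 13 bases long, whereas the longest of Rps3 was 5. Such runs were found on both sides of the ratio, and Rpl37 and Rpl28 each had a run of 11. The longest run of Rpl22, also positive on both arrays, was 5. Counted from the annotated start as base 1, the run began at base 41 in Rpl41, 22 in Rpl26, 23 in Rps7 and 29 in Rpl37, and at -3, before the start, in Rps10 and Rpl28. A run away from the annotated start was not shown to be a TOP tract. The 38 genes with a run had a median log ratio of -0.54 and the 8 without one a median of -0.56. The core CCGGAA of ETS transcription factors, searched on both strands of the whole window, was found in 28 of the 46 genes (60.9%), against 16.7% of all genes in the table and 26.9% of the tested genes in it. The same 120 bases of Rpl26 were also searched and do not hold it, although the whole Rpl26 window does. The core lies in the 120 bases before the start of both Rpl41 and Rpl37, where it is in capitals. These are the matched members farthest out on the negative and on the positive side.
Rpl41 (chr10:128549169-128549288, minus strand): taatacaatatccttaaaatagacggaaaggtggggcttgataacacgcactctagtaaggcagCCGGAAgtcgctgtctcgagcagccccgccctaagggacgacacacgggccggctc
Rpl37 (chr15:5116493-5116612, plus strand): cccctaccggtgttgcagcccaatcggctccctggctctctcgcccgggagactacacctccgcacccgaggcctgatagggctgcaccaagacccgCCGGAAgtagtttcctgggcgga

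Most ribosomal protein genes lay on the negative side of the ratio. Both arrays gave a negative ratio for 47 of the 58 (81.0%) and a positive one for 6, and the arrays differed in sign for 5. Over all genes, 38.2% were negative on both arrays and 33.9% positive on both. The median of the 58 was -0.49, with -0.47 on array 1 and -0.52 on array 2, beside a median of -0.02 over all genes. If the base is 2, the median is a ratio of 1.40-fold. Values near this median were common, and 7 genes had a mean of -1 or below. Of the 58 means, 30 were among the lowest 10% of all genes.

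In single genes the test passed for few. Each gene's ratio was tested against 0 with limma's moderated test over all 13506 genes, with Benjamini-Hochberg adjustment and a threshold of 0.05. It called 4 of the 58, Rpl41, Rpl26, Rps10 and Rps3, against 2.9% of all genes. These 4 lay on the negative side, where 0.777% of all genes were called. The calls depended on the setting: 2 were left when both arrays were scaled to one spread, 2 in a fit on probes, 1 with a minimum fold of 1.2, and 0 after quantile normalization or without moderation. On the positive side it called 0 of the 58, where 2.12% of all genes were called, and 2 of the 58 had an unadjusted p under 0.05 there, against 15.0% of all genes. An unadjusted p under 0.05 on the negative side was met by 32 members, and by 12.5% of all genes. A distance of at least 0.5 log2 units on the negative side of both arrays was reached by 24 members, and by 4.51% of all genes. The same distance on the positive side was reached by 1 member, Rpl37, which was picked out after its values were seen, and by 7.91% of all genes.

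**Figure D1:**
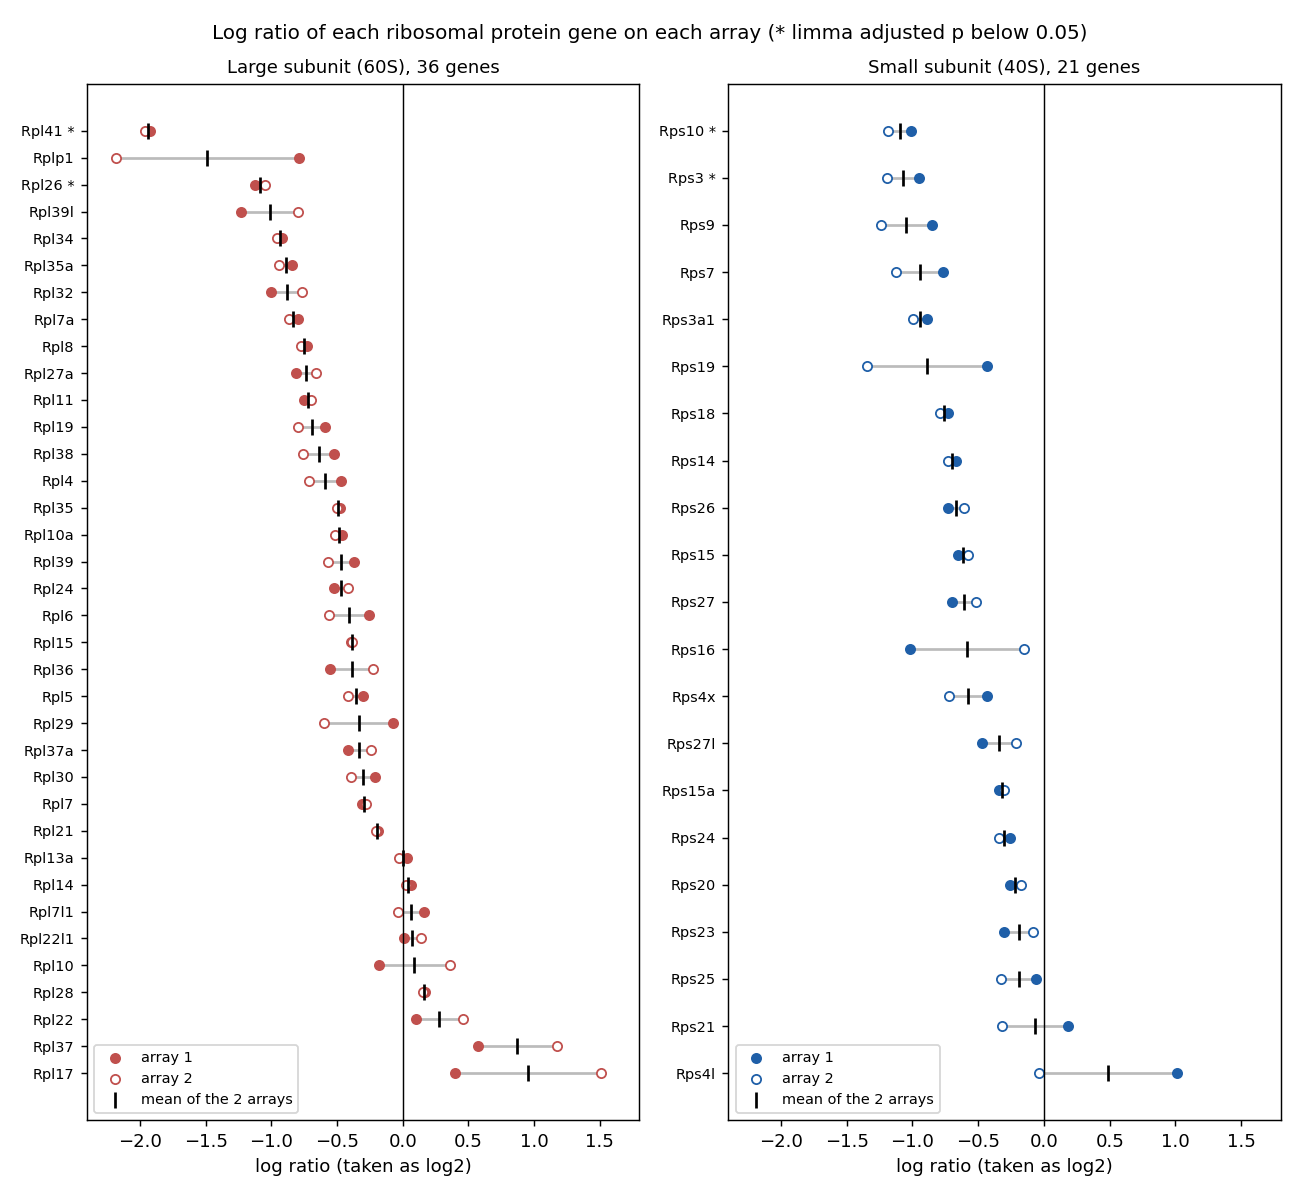
Each row is a ribosomal protein gene, with the log ratio (taken as log2) on array 1 as a filled point, on array 2 as an open point and their mean as a black tick, for 36 large subunit genes on the left and 21 small subunit genes on the right. Most rows lie left of 0 with both points close together. Rplp1, Rps19, Rps16, Rpl17 and Rps4l have the widest gaps between the arrays.

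The large subunit was led by Rpl41, the smallest ribosomal protein, a short basic peptide at the interface of the subunits. Its log ratio was -1.92 on array 1 and -1.96 on array 2, a mean of -1.94 ± 0.03 (SD, n = 2; limma adjusted p = 0.0282). If the base is 2, that is 3.83-fold. The arrays differed little for this gene, and only 0.170% of all genes had a mean as low or lower.

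Rplp1 came next by its mean, and here the arrays did not agree in size. This acidic protein of the stalk, which recruits the GTPases of translation, had -0.79 on array 1 and -2.18 on array 2. Its mean of -1.49 ± 0.98 (SD, n = 2) did not pass (limma adjusted p = 0.0877), and its 95% interval in that fit ran from -2.37 to -0.61. The other stalk genes, Rplp0, Rplp2 and Rpl12, were not analysed here.

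Rpl26, a protein beside the exit tunnel, was read by 2 probes, both on the negative side. They gave -1.38 and -0.87 on array 1, and -1.20 and -0.89 on array 2. Their average was -1.09 ± 0.06 (SD over arrays, n = 2; limma adjusted p = 0.0438), so the probes differed from each other by more than the arrays did. The other measured exit tunnel genes were divided between the sides. Rpl4 had -0.47 and -0.72, Rpl35 had -0.48 and -0.50, and Rpl39 had -0.37 and -0.57 on arrays 1 and 2. Rpl22 and Rpl17 were positive on both arrays.

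Below these lay a dense group of large subunit genes between -1 and -0.5 in their mean, 10 in number. Rpl34 had -0.92 and -0.95 on arrays 1 and 2, Rpl35a, one of the genes mutated in human Diamond-Blackfan anaemia, -0.84 and -0.94, and Rpl32 had a mean of -0.88 ± 0.17 (SD, n = 2). Rpl7a and Rpl8 had means of -0.83 ± 0.05 and -0.75 ± 0.03 (SD, n = 2). In each of these genes the distance from 0 was several times the SD between the arrays, yet none passed over all genes, and the closest was Rpl34 with a limma adjusted p of 0.0504. The others of the group were Rpl27a, Rpl11, Rpl19, Rpl38 and Rpl4, with means from -0.74 to -0.59. Rpl38, which in mouse embryos is needed for translation of Hox mRNAs, had -0.52 and -0.76.

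Rpl5 and Rpl11, which enter the large subunit together with the 5S ribosomal RNA, were both negative on both arrays. Rpl11 had -0.75 and -0.70, and Rpl5 had -0.30 and -0.42 on arrays 1 and 2. The Rpl5 value hides a disagreement of its 2 probes, of which one gave 0.00 and -0.20 and the other -0.60 and -0.64. The second of these probes lies close to Rpl11. Rpl37a, the third gene with 2 probes, had -0.31 and -0.33 with one probe and -0.52 and -0.16 with the other.

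Another 13 large subunit genes had means between -0.5 and 0. They ran from Rpl35 at -0.49 ± 0.01 (SD, n = 2) and Rpl10a at -0.49 ± 0.04 to Rpl21 at -0.20 ± 0.01. Rpl15 had -0.39 on both arrays, Rpl24 had -0.52 and -0.41, and Rpl6 had -0.26 and -0.56. Rpl29 differed by more than 0.5 between the arrays, with -0.07 and -0.60, while Rpl36 had -0.55 and -0.22. Rpl30 and Rpl7 had means of -0.30 ± 0.13 and -0.29 ± 0.02.

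The 6 genes that were positive on both arrays all belonged to the large subunit. Rpl17, an exit tunnel protein, had 0.40 on array 1 and 1.51 on array 2, a mean of 0.95 ± 0.78 (SD, n = 2), and Rpl37, a small zinc-binding protein, had 0.57 and 1.18, a mean of 0.87 ± 0.43. Neither passed (limma adjusted p = 0.126 and 0.0874). Both lay far from 0 on array 2 and nearer to it on array 1. Rpl22, which can be deleted in mice without loss of viability, had 0.10 and 0.46, and Rpl28 had 0.17 and 0.16. Rpl14 and Rpl22l1 were within 0.14 of 0 on both arrays. Rpl10, which joins the large subunit late, near the peptidyl transferase centre, had -0.18 and 0.36. Rpl13a, often used as a reference gene in quantitative PCR and known for a role in silencing mRNAs after interferon gamma, had 0.03 and -0.03.

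In the small subunit, 19 of 21 genes were negative on both arrays, 0 were positive on both and 2 were mixed. Rps10, a protein of the subunit's head and a ubiquitination target when ribosomes collide, had -1.01 on array 1 and -1.18 on array 2. Rps3, at the channel where mRNA enters, had -0.95 and -1.20. Their means of -1.10 ± 0.12 and -1.07 ± 0.17 (SD, n = 2) passed with limma adjusted p of 0.0446 and 0.0475, both near the threshold.

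Rps9, which lies beside Rps3 at the mRNA entry, had -0.85 and -1.24 on arrays 1 and 2, a mean of -1.05 ± 0.28 (SD, n = 2; limma adjusted p = 0.0534). Rps7, a further Mdm2-binding protein, had -0.77 and -1.12, and Rps3a1 had -0.89 and -0.99. Their limma adjusted p of 0.0589 and 0.0507 lay just above the threshold too. Rps19, the gene most often mutated in human Diamond-Blackfan anaemia, had -0.43 and -1.35, a mean of -0.89 ± 0.65, so its distance from 0 was only a little above the SD. Rps19bp1, named for its binding to Rps19 and counted in neither subunit, had -0.58 and -0.52.

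The 19 of 21 small subunit genes negative on both arrays included all 4 measured genes of the decoding site and the mRNA channel. Besides Rps3 these were Rps26, at the mRNA exit, with -0.73 and -0.61, Rps15 with -0.65 and -0.58, and Rps23, at the decoding centre, with -0.30 and -0.09. Rps2 was not analysed here, nor was Rps6, the substrate of the S6 kinases. Rps18 and Rps14 had means of -0.76 ± 0.04 and -0.70 ± 0.04 (SD, n = 2). In humans, loss of a copy of RPS14 underlies the anaemia of the 5q- syndrome. Rps27 and Rps4x had -0.61 ± 0.13 and -0.58 ± 0.21.

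Rps16 had the opposite pattern to Rps19, with -1.02 on array 1 and -0.15 on array 2. Its mean of -0.59 ± 0.61 (SD, n = 2) did not exceed its SD. Rps15a, Rps24, Rps20 and Rps25 had means from -0.32 to -0.19. Rps21 had 0.18 and -0.32 and was of mixed sign. Rps12 had a value on array 1 only, 0.36, and entered no count.

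The large subunit genes had a median of -0.44 and the small subunit genes a median of -0.61. By array, the medians were -0.44 and -0.65 on array 1 and -0.51 and -0.58 on array 2. The large minus small difference was therefore 0.21 on array 1 and 0.07 on array 2, and 0.17 between the medians of the means. It had the same sign on both arrays but was smaller on array 2, and it was not tested: turning signs over 2 arrays cannot give a two-sided p below 0.5. The subunits overlapped widely. Means ran from -1.94 to 0.95 in the large and from -1.10 to 0.49 in the small subunit. Without paralogs, 26 of 33 large and 18 of 19 small subunit genes were negative on both arrays.

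**Figure D2:**
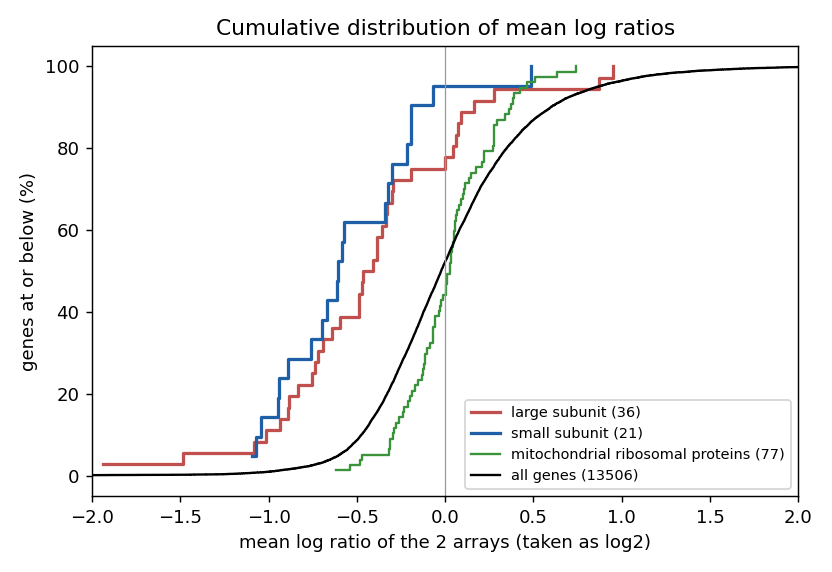
The vertical axis gives the percentage of genes whose mean log ratio over the 2 arrays (horizontal axis, taken as log2) is at or below each value, for 36 large subunit genes, 21 small subunit genes, 77 mitochondrial ribosomal protein genes and all 13506 genes. The large and small subunit curves lie left of the curve of all genes over most of the range, with medians of -0.44 and -0.61, and the large subunit curve has a longer tail on the positive side.

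The paralogs, copies of a ribosomal protein gene that encode a similar protein, were 5 in number among the members. Rpl39l, known for its expression in testis, had -1.23 on array 1 and -0.80 on array 2, farther from 0 than Rpl39 on both arrays. Rps27l, a p53 target in human cells, had -0.47 and -0.21, against -0.70 and -0.52 for Rps27. Rps4l had 1.01 and -0.03, the widest positive value of the small subunit on array 1 and near 0 on array 2, against -0.43 and -0.72 for Rps4x. Rpl22l1 had 0.01 and 0.14, against 0.10 and 0.46 for Rpl22, the protein that in mouse represses this paralog. Rpl7l1 had 0.16 and -0.03, against -0.31 and -0.28 for Rpl7. Negative ratios on both arrays were thus found for 2 of the 5 (40%, against 38.2% of all genes), and positive ones for 1 (20%, against 33.9%). Limma's test called 0 of the 5 paralogs, against 2.9% of all genes. Rpl39l alone had an unadjusted p under 0.05, against 27.5% of all genes. Rpl3l, a muscle form, had a value on neither array.

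Agreement between the arrays was described by their difference in each gene. The median absolute difference between the arrays was 0.17 over the 58 members and 0.25 over all genes, and 8 members (13.8%) differed by more than 0.5, against 21.5% of all genes. In decreasing order these 8 were Rplp1, Rpl17, Rps4l, Rps19, Rps16, Rpl37, Rpl10 and Rpl29. Array 2 was the more negative in Rplp1, Rps19, Rps4l and Rpl29, and the less negative or more positive in Rpl17, Rps16, Rpl37 and Rpl10. Across the 58 genes, which are not independent and share both arrays, Pearson's r between the arrays was 0.762, and over all genes it was 0.615.

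**Figure D3:**
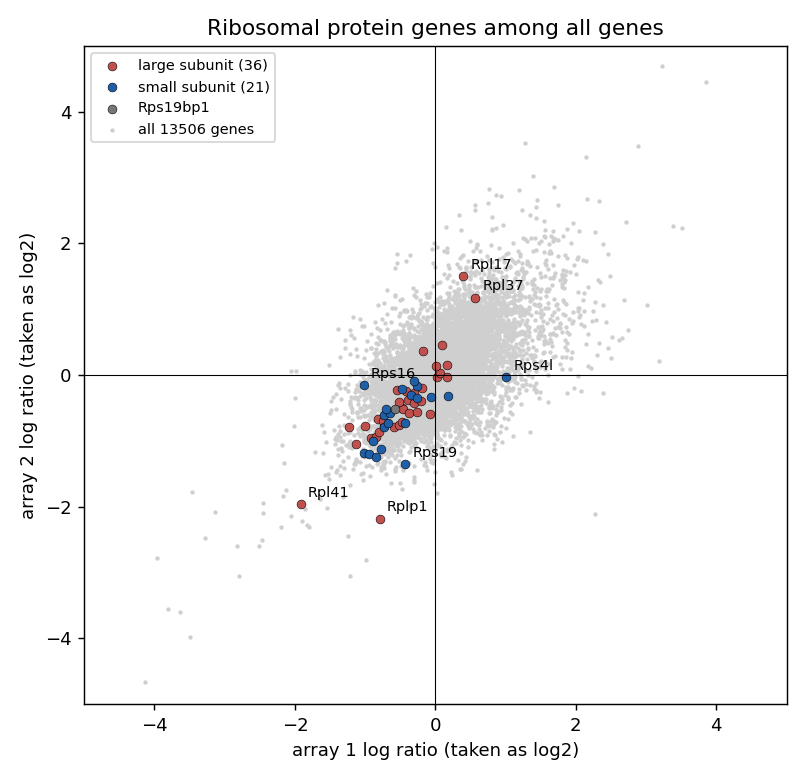
Each point is a gene, with its log ratio (taken as log2) on array 1 on the horizontal and on array 2 on the vertical axis. Large subunit genes, small subunit genes and Rps19bp1 are drawn over all 13506 genes in grey, and 47 of these 58 fall in the lower left part, where both ratios are negative.

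Many ribosomal protein genes carry small nucleolar RNAs, guides for the modification of ribosomal RNA, in their introns. In the RefSeq gene table of GRCm38.p6, 17 of the 58 span at least 1 such gene and 41 span none. The hosts had a median of -0.41 and the other 41 genes a median of -0.55, and 13 of the hosts and 34 of the others were negative on both arrays. Hosts were found at both ends, such as Rps3 with 2 of these RNA genes and Rpl17 with 3. The 58 genes lie on 18 chromosomes.

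Other components and partners of the ribosome were set beside the members. Fau, whose product is cleaved to the small subunit protein S30, had -0.38 and -0.58 on arrays 1 and 2, and Rpsa, a small subunit protein also known as a laminin receptor, had -0.30 and -0.36. Neither passed. The list of mRNAs known for a TOP tract, which also holds Fau and Rpsa, had a median of -0.19 over 18 measured genes. Of these, 11 were negative on both arrays (61.1%, against 38.2% of all genes) and 3 positive (16.7%, against 33.9%). Limma called 2 of the 18, Eef1a1, the elongation factor that delivers aminoacyl-tRNA, at -1.41 and -1.48 (adjusted p = 0.0320), and Vim, vimentin, at -0.90 and -1.14 (adjusted p = 0.0488). Both lay on the negative side, where 0.777% of all genes were called. Eef2, the translocase, had a mean of -0.61 ± 0.16 (SD, n = 2), Tpt1 had -0.58 ± 0.18 and Npm1 had -0.57 ± 0.26. Eif3e, a subunit of an initiation factor, was on the other side at 0.73 ± 0.15.

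The genes that build ribosomes had counts near those of all genes. Of 49 measured genes of ribosome biogenesis, 22 had negative ratios on both arrays (44.9%, against 38.2% of all genes) and 18 positive ones (36.7%, against 33.9%). The median of their means was -0.08, and by array it differed in sign, with 0.03 on array 1 and -0.25 on array 2. Limma called 1, Nmd3, the export adaptor of the large subunit, at 0.97 and 1.14 on arrays 1 and 2 (adjusted p = 0.0474). Among all genes, 2.12% were called on the positive side and 2.9% on either side. Nhp2 and Dkc1, of the pseudouridylation complex, had means of 0.83 ± 0.33 and 0.67 ± 0.01 (SD, n = 2), and Sbds, which helps to release a factor from new large subunits, had 0.75 ± 0.17. On the negative side, Rrp9 had -0.69 ± 0.36. Among 8 genes of RNA polymerase I and its factors, 2 were negative on both arrays (25%, against 38.2%) and 3 positive (37.5%, against 33.9%). Taf1d had 0.94 ± 0.06 and Ubtf had -0.54 ± 0.22. These 2 had an unadjusted p under 0.05, against 27.5% of all genes, and limma's adjusted p passed for 0, against 2.9%.

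Of 19 regulators of ribosome production and of mTOR signalling, 9 had negative ratios on both arrays (47.4%, against 38.2% of all genes). Positive ratios on both were found for 6 (31.6%, against 33.9%). Limma called 0, against 2.9% of all genes, and 7 had an unadjusted p under 0.05, against 27.5% of all genes. Eif4ebp1, a translation repressor that mTOR inactivates, had -0.87 and -0.98 on arrays 1 and 2, and Larp1 had -0.72 and -0.76. Mxd1, an antagonist of Myc, had 0.85 and 0.55, while Mxi1, of the same family, had -1.18 and -0.56. Myc itself had -0.30 and -0.39.

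Mitochondrial ribosomal protein genes, which serve the separate ribosome of that organelle, are set beside the cytosolic ones by their values. Over 77 measured genes the median was 0.02. On both arrays, 24 were below 0 (31.2%, against 38.2% of all genes) and 30 above 0 (39.0%, against 33.9%). Limma's test called 0, against 2.9% of all genes, and 10 reached an unadjusted p under 0.05, against 27.5% of all genes. Their means ran from -0.62 to 0.74.

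**Figure D4:**
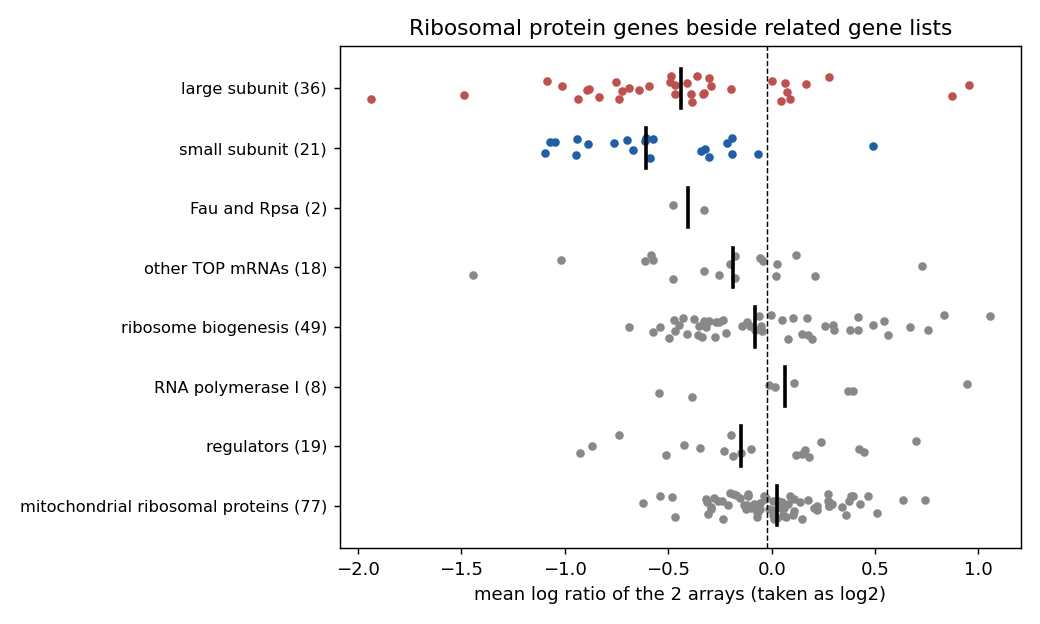
Each point is a gene at its mean log ratio over the 2 arrays (horizontal axis, taken as log2), in rows for the large and the small subunit and for the related lists, with the number of measured genes in brackets. Black bars are the medians of the rows, and the dashed line is the median of all genes, -0.02. The points are spread vertically at random for legibility.

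Markers of cell types in the tumours were given beside the ribosomal protein genes, and their part in the result was not tested. Of 7 measured hepatocyte genes, 4 had negative ratios on both arrays and 2 positive ones, with means from -0.95 to 0.80. Of 5 epithelial genes, 2 were negative and 1 positive, with means from -0.49 to 0.34. T and B cell genes were negative in 2 and positive in 4 of 8, with means from -0.29 to 0.99. Limma called 0 of the hepatocyte, epithelial and T and B cell genes, against 2.9% of all genes. Macrophage genes were negative in 3 and positive in 1 of 4, with means from -1.20 to 0.31. At the lower end limma called Cd14 (adjusted p = 0.0475), on the side where 0.777% of all genes were called. Fibroblast genes were negative in 3 of 3, with means from -2.93 to -0.24. The lowest was Col1a1, a chain of type I collagen, which limma called (adjusted p = 0.0184). Col1a1 lay farther from 0 than any ribosomal protein gene. The other measured fibroblast genes lay nearer to 0 and did not pass. Col1a2 had -0.38 and -0.11 on arrays 1 and 2, and Col3a1 had -0.72 and -0.09. The table holds no level of a single tissue, so the markers could not show which cells were present.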

How the data were processed

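The deposited table holds 1 value per probe and array, a log ratio of Cy5 and Cy3 taken as log2. How the ratios were normalized, corrected for background and filtered is not stated in the labels or the table. Their base and numerator are not stated either, and intensities were not used. Member values are rounded more coarsely on array 1 than on array 2, as in Rpl41 with -1.92 and -1.95792. The reason is not given, and whether the arrays were processed alike was not tested. A ratio of exactly 0 was counted as neither negative nor positive. Both arrays had a value for 18837 of 23473 probes. The platform annotation gave 16631 probes 1 gene symbol, 0 several and 6842 none. Of these symbols, 12622 were current in the RefSeq table of GRCm38.p6, 3947 were replaced by the gene for which they are a unique synonym and 62 stayed as given. The rule found 60 symbols on 63 probes, of which 58 had a value on both arrays, 4 of them reached through a synonym. The RefSeq table names 90 protein-coding symbols that meet the rule, of which 57 had a value on both arrays and 33 did not. That table also names 312 pseudogenes under the rule, and probes may read processed copies.

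Probes of a gene were averaged. The test of each ratio against 0 used limma 3.58.1, run in R 4.3.3 (intercept, eBayes, 1 residual and 4.06 prior degrees of freedom) over all genes, and the script was tested on simulated data. The number of arrays limits the precision. Figures were drawn with matplotlib 3.10.9. The members, the lists and the sequence motifs were chosen with earlier results of these data known. Members named were those called, the 6 per subunit and side farthest out on their weaker array, the 3 nearest 0 and the 3 widest apart between arrays per subunit, members with several probes and fixed role groups. The other members were given by range or named after their values were seen.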

Additional observations from a re-analysis of the deposited data

How the results depend on the processing

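The 47 genes negative on both arrays were the same 47 after centring, scaling to equal spread or quantile normalization, and the 6 positive on both became 7, 7 and 6. The number of called genes moved more. It was 4 after centring and 3 with a robust prior, 2 after scaling to equal spread and 2 in the fit on probes, 1 with a minimum fold of 1.2, and 0 after quantile normalization or without moderation. Rpl41 was called in 5 of 7 alternatives, Rpl26 and Rps10 in 3 and Rps3 in 1. In the fit on probes, Rpl26 was counted through 1 of its 2 probes (limma adjusted p = 0.0480), and the other did not pass (0.0670). The alternatives were limma's moderated fits and, without moderation, an ordinary t-test. Over these fits and the t-test the adjusted p ranged from 0.0291 to 0.462 for Rpl41 and from 0.0464 to 0.462 for Rpl26. It ranged from 0.0472 to 0.463 for Rps10 and from 0.0489 to 0.469 for Rps3. The highest values came without moderation, where 1 residual degree of freedom is left. The cause of the other losses was not tested. With 1 array left out, the large subunit median ranged from -0.51 to -0.44, the small subunit median from -0.65 to -0.58 and the large minus small difference from 0.07 to 0.21, as values with no test. The difference was 0.15 without paralogs, 0.21 with the symbols as the platform gives them and 0.16 with Rps12 included, and its sign was the same in each alternative run. No member changed sign in its mean under the other normalizations and tests. With 1 array left out, the 5 members of mixed sign, Rpl10, Rpl13a, Rpl7l1, Rps4l and Rps21, could take the other sign. No paired analysis was possible because each ratio already pairs the 2 tissues on an array and the labels give 1 group of replicates.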
